A study of Carassius auratus with 9 samples.

Results

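The myogenic regulatory factors (MRFs) were followed in the muscle of Hefang crucian carp (Carassius auratus) through 4 gene models, which were LOC113067086 for MyoD, LOC113111223 for MyoG, LOC113062081 for MRF4 and LOC113048198 for Myf5. They were taken by gene ID, and the descriptions of the annotation named each of them as the factor in question. They were 4 of the 76298 genes in the expression table, and all 4 passed the filter on low counts that left 23946 genes for testing. The fish had been fed for 8 weeks. The LA group received the commercial basal feed with no crystalline amino acid added, the MA group the same feed with 1.7% Met and 3.4% Lys, and the HA group the same feed with 3.4% Met and 3.4% Lys. Both supplemented diets thus carried the same added Lys and differed in Met only, and no group received Lys without Met. Each diet had 3 poly(A)-selected muscle libraries, described by the study as biological replicates, and a library is named here by its diet and number (LA1 to HA3). Which fish or tank gave each library is not given in the sources used here.

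MRFs are basic helix-loop-helix transcription factors that bind E-box sites as dimers with E proteins and switch on muscle genes. In mice and zebrafish, Myf5 and MyoD commit precursor cells to the muscle lineage, MyoG drives the differentiation and fusion of myoblasts, and MRF4 acts in part beside Myf5 in the embryo and is the MRF most abundant in mature fibres of mammals. Fish muscle keeps adding fibres after hatching from satellite cells, which are marked by Pax7, and in grown muscle MRF transcripts come both from such precursors and from nuclei of fibres. Goldfish and crucian carp descend from an ancestor with a doubled genome, so most single genes of other vertebrates are present as a pair.

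Each of the 4 factors had 2 copies by description, and all 8 were tested. On assembly ASM336829v1 the MyoD copy LOC113067086 lay on chromosome 50 (13544868 to 13546862, minus strand) and its partner LOC113043569 on chromosome 25 (17591423 to 17593682, minus strand). The MyoG copy LOC113111223 lay on chromosome 11 (16627778 to 16630037, plus strand) and LOC113055226 on chromosome 36 (10654186 to 10656580, plus strand). MRF4 and Myf5 were neighbours, as they are in other vertebrates. On chromosome 4 the MRF4 copy LOC113062081 (20345820 to 20350229, minus strand) was separated by 1687 bases from the Myf5 copy LOC113062075 (20340851 to 20344132, minus strand). On chromosome 29 the Myf5 copy LOC113048198 (15289902 to 15293655, plus strand) was separated by 4000 bases from the MRF4 copy LOC113048196 (15284370 to 15285901, plus strand). The followed models of MRF4 and Myf5 therefore came from different members of this pair of loci. How reads that matched both copies of a factor were counted is not given in the sources used here, so the split of reads between copies is uncertain and the sum of both copies is given as well.

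Library totals ran from 13962770 to 17177610 counts. Fast muscle markers took 334426 to 463101 CPM (reads scaled to a common library size) in each library and so bore out the muscle label. LA1 and HA2 came from different diets but were the most alike of all pairs. The absolute log2 ratio of their CPM had a median of 0.267 over tested genes, whereas LA1 and LA2, of the same diet, were the least alike at 0.668. Library 3 lay between libraries 1 and 2 of its diet for 62.2% of the tested genes in LA, 53.5% in MA and 59.9% in HA. It did so in all 3 diets for 23.5%. With unrelated libraries each would be expected in the middle equally often, although genes vary together. Whether the libraries of a diet are independent was not tested. Values are therefore given with all 9 libraries and, where they rest on LA1 or HA2, without both. In the mapping statistics of the study, LA1, MA2 and HA2 had the lowest shares of mapped reads, and library 3 was intermediate in each diet. The part of the mapped share in the values below was not tested. Summed CPM of slow or cardiac muscle markers was 315 in MA2 and 164 in MA3 and at most 10.1 elsewhere. That of leukocyte markers was 207 in LA2 and 164 in LA3 and 69.1 to 82.9 elsewhere. In bulk muscle, fewer cells of a type and less RNA per cell cannot be told apart.

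None of the 4 followed genes passed the adjusted threshold of 0.05 in any comparison of diets (edgeR quasi-likelihood test, Benjamini-Hochberg over all tested genes). Their 12 adjusted p ranged from 0.539 to 0.995, and 1 of the 12 unadjusted p was under 0.05. DESeq2 called 0 of the 12, with 2 unadjusted p under 0.05, and limma on FPKM called 0, with 3. The edgeR share of tested genes at that level was 11.5% for MA against LA, 6.22% for HA against LA and 10.1% for HA against MA. In the same order, DESeq2 had 2730, 1457 and 2360 of the 23946 tested genes under 0.05, and limma 2594, 1595 and 2337. Adjusted edgeR calls were few, with 0.0835% of tested genes for MA against LA, 0% for HA against LA and 0.0543% for HA against MA. For HA against LA, edgeR thus called 0 genes of the whole table, with 1489 at an unadjusted p under 0.05, limma called 0 and DESeq2 49. Over all 8 copies, 0 of 24 tests were called by edgeR or DESeq2.

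**Figure D1:**
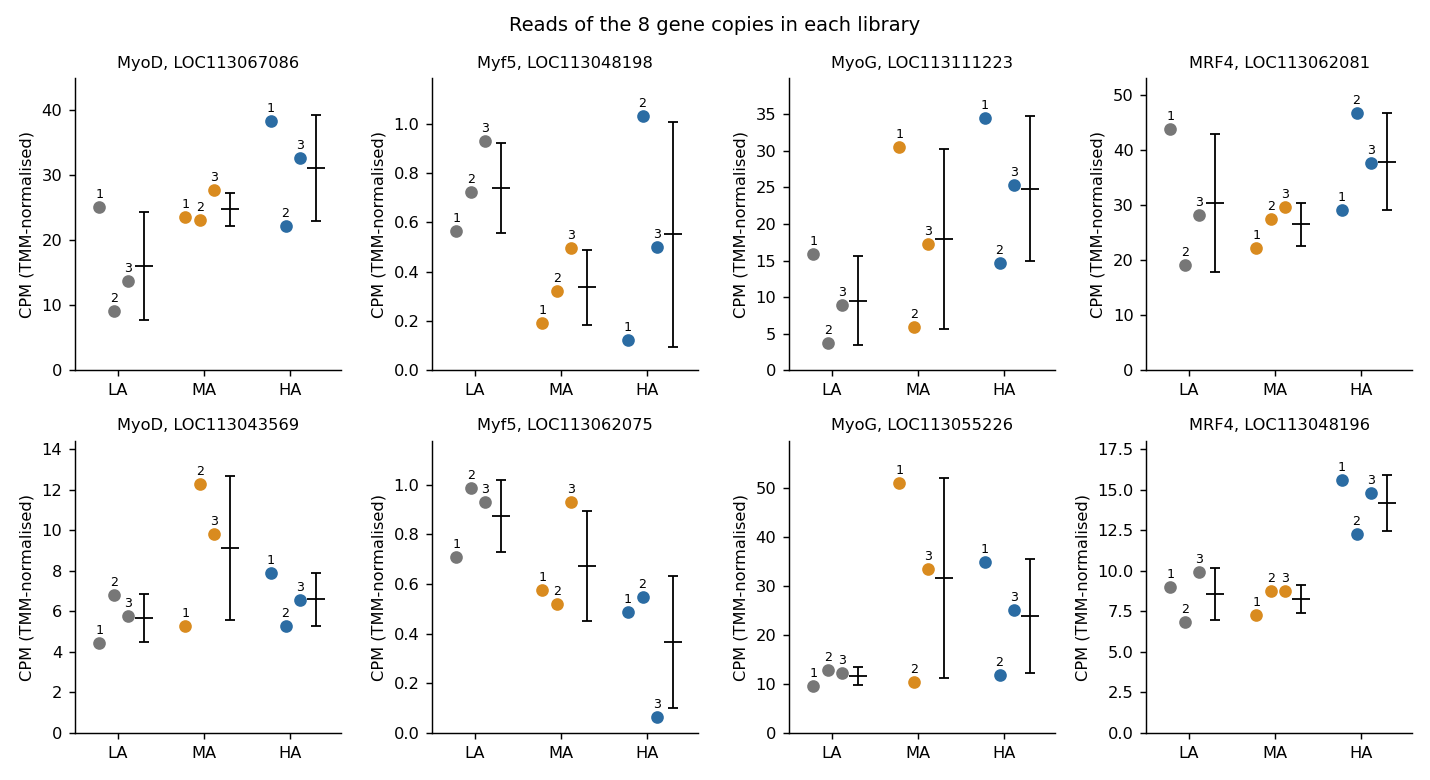
TMM-normalised CPM of the 8 MRF gene copies in the 9 libraries, with 1 panel per copy. Points are libraries with their number above, grouped by diet, and the bar beside them is the mean ± SD of 3 libraries. In the upper left panel LA1 lies at 25.1 CPM among the supplemented libraries, and in the lower right panel the 3 HA libraries lie above all others.

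MyoD, which commits cells to the muscle lineage, had its lowest mean level in LA and its highest in HA. LOC113067086 was at 25.1, 9.06 and 13.7 CPM in LA1 to LA3, at 23.5, 23.1 and 27.6 CPM in MA1 to MA3, and at 38.2, 22.2 and 32.6 CPM in HA1 to HA3. The diets overlapped through 2 libraries, LA1, which was above 2 of the 3 MA libraries, and HA2, which was below LA1. The mean was 16.0 ± 8.29 CPM in LA, 24.7 ± 2.53 in MA and 31.0 ± 8.16 in HA (SD, n = 3 each). MyoD was 1.55 times the LA level in MA (95% interval 0.902 to 2.67, edgeR adjusted p = 0.539) and 1.94 times in HA (1.13 to 3.35, adjusted p = 0.724). HA stood at 1.25 times MA (0.732 to 2.15, adjusted p = 0.822). The HA to LA difference, with an unadjusted p of 0.0215, was the only one of the 12 member tests under 0.05, and 6.22% of all tested genes were under 0.05 in that comparison.

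The size of the MyoD difference depended on LA1 and HA2. LA1 was the highest LA library and HA2 the lowest HA library for this copy, and the diets had overlapped through them. Leaving them out therefore fixed in advance that the diets would separate and that HA and LA would differ more. Without both, LA was left with 9.06 and 13.7 CPM and HA with 38.2 and 32.6 CPM, and none of the 3 diets overlapped. The log2 difference from LA was then 1.12 ± 0.23 (SE) in MA, with an edgeR adjusted p of 0.0484, and 1.64 ± 0.25 in HA, with an adjusted p of 0.027. In that fit, 0.634% of the 25074 tested genes were called higher in MA than in LA and 0.271% higher in HA than in LA. HA against MA was not called (log2 0.52 ± 0.22, adjusted p = 0.341). Without LA1 alone, the log2 difference was 1.12 for MA (edgeR adjusted p = 0.112) and 1.46 for HA (adjusted p = 0.0664), and without LA2 alone it was 0.35 and 0.68. These libraries were set aside because an earlier look at the same data had found them alike, so the calls are no independent evidence.

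The libraries low in MyoD were those high in leukocyte markers. LA2 and LA3 held the 2 lowest levels of LOC113067086, and LA2, LA3 and LA1 were the 3 libraries highest in the leukocyte sum, with 207, 164 and 82.9 CPM. The sum covered 64 genes, of which 32 were at 0 in every library, all of them copies of the macrophage mannose receptor. Coronin-1A, a leukocyte actin regulator, was at 82.1 CPM in LA2 and 57.7 CPM in LA3 against 17.3 to 22.5 CPM in the others. The part of this difference in the MyoD result was not tested.

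The other MyoD copy, LOC113043569, followed another order. It was at 4.46, 6.83 and 5.79 CPM in LA, at 5.29, 12.3 and 9.83 CPM in MA, and at 7.91, 5.28 and 6.58 CPM in HA. MA held the 2 highest libraries, MA2 and MA3, and MA1 lay within the LA range. These were the 2 libraries that also carried slow muscle markers, whose part was not tested. Relative to LA the fold was 1.60 in MA (95% interval 0.978 to 2.63, edgeR adjusted p = 0.457) and 1.16 in HA (0.705 to 1.90, adjusted p = 0.994). Over the 9 libraries the log2 CPM of the 2 MyoD copies had a Pearson r of 0.16, given as a description of libraries that share diets and depth.

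Summed over both copies, MyoD reached 29.6, 15.9 and 19.4 CPM in LA, 28.8, 35.4 and 37.5 CPM in MA and 46.1, 27.4 and 39.2 CPM in HA. The log2 difference of the sum was 0.65 ± 0.28 (SE) for MA against LA and 0.80 ± 0.28 for HA against LA, with edgeR adjusted p of 0.413 and 0.716. HA and MA differed by 0.15 ± 0.28 (adjusted p = 0.911, 95% interval -0.47 to 0.77).

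Myf5, the other commitment factor, was close to the limit of counting. LOC113048198 had 8, 11 and 13 reads in LA1 to LA3, 3, 5 and 8 reads in MA1 to MA3, and 2, 15 and 8 reads in HA1 to HA3. Its CPM was 0.567 to 0.929 in LA, 0.191 to 0.495 in MA and 0.122 to 1.03 in HA, and HA held both the lowest and the highest library. All MA libraries were below all LA libraries, as were those of 8.41% of tested genes in that comparison. Summed over each diet these were 32 reads in LA (exact Poisson 95% interval 21.9 to 45.2), 16 in MA (9.15 to 26.0) and 25 in HA (16.2 to 36.9), and these intervals cover counting error only. The fold against LA was 0.462 in MA (95% interval 0.153 to 1.40, edgeR adjusted p = 0.612) and 0.740 in HA (0.256 to 2.14, adjusted p = 0.995). Without HA1 the log2 difference of HA from LA turned from -0.43 to 0.04, and without HA2 that of HA from MA turned from 0.68 to -0.11, so neither direction was settled at this depth.

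The second Myf5 copy was equally sparse. LOC113062075 was at 0.708, 0.985 and 0.929 CPM in LA, 0.574, 0.517 and 0.928 CPM in MA, and 0.487, 0.549 and 0.0626 CPM in HA, where HA3 held 1 read. All HA libraries lay below all LA libraries, as did those of 4.98% of tested genes, and the fold was 0.422 (95% interval 0.156 to 1.14, edgeR adjusted p = 0.853). With both copies summed, Myf5 differed from LA by a log2 value of -0.67 ± 0.47 (SE) in MA and -0.82 ± 0.48 in HA (edgeR adjusted p = 0.647 and 0.875). Pax7, the satellite cell factor, was likewise low, with 3.62 to 7.91 CPM summed over 5 copies, and its ranges in the 3 diets overlapped.

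MyoG, the differentiation factor, showed the largest fold of the 4 followed genes, in HA against LA, and the largest pooled SD of log2 CPM within diets. LOC113111223 was at 15.9, 3.74 and 8.86 CPM in LA, at 30.5, 5.95 and 17.3 CPM in MA, and at 34.5, 14.7 and 25.3 CPM in HA. Within every diet library 1 was the highest and library 2 the lowest, and the highest library was 4.24 times the lowest in LA, 5.12 times in MA and 2.35 times in HA. That SD, taken with a prior count of 2, was 0.97, against a median of 0.45 over all tested genes, and 89.8% of tested genes varied less. The fold against LA was 1.89 in MA (95% interval 0.724 to 4.92, edgeR adjusted p = 0.632) and 2.62 in HA (0.998 to 6.87, adjusted p = 0.801). HA stood at 1.39 times MA (0.540 to 3.56, adjusted p = 0.860). Without LA1 and HA2 the log2 difference from LA was 1.51 ± 0.62 (SE) in MA and 2.25 ± 0.67 in HA, and neither passed (edgeR adjusted p = 0.258 and 0.172). Without MA1 alone the log2 difference of MA from LA was 0.30.

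The second MyoG copy had its highest level in MA. LOC113055226 was at 9.56, 12.9 and 12.3 CPM in LA, at 51.1, 10.5 and 33.6 CPM in MA, and at 34.9, 11.8 and 25.1 CPM in HA. MA2 and HA2 lay within the LA range, and the 4 other supplemented libraries were above it. Within each diet the CPM of this copy rose with the mapped share of the library. For LOC113111223 that order held in MA and HA but not in LA. The part of the mapped share was not tested. The LA libraries were close to each other for this copy, with the highest 1.35 times the lowest, whereas MA spanned 4.87 times and HA 2.96 times. The fold against LA was 2.73 in MA (95% interval 1.20 to 6.23, unadjusted p = 0.0216, edgeR adjusted p = 0.337) and 2.06 in HA (0.910 to 4.67, adjusted p = 0.845). In MA against LA, 11.5% of tested genes had an unadjusted p under 0.05.

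MyoG summed over both copies was 25.4, 16.7 and 21.2 CPM in LA, 81.5, 16.4 and 51.0 CPM in MA, and 69.4, 26.5 and 50.4 CPM in HA. All HA libraries were above all LA libraries, as were those of 5.15% of tested genes, and MA2 was below all LA libraries. The log2 difference from LA was 1.24 ± 0.52 (SE) in MA and 1.21 ± 0.52 in HA (edgeR adjusted p = 0.401 and 0.785), and HA and MA differed by -0.03 (95% interval -1.17 to 1.12). The MA library lowest in MyoG, MA2, was the one highest in slow or cardiac markers. That sum was 3.57, 315 and 164 CPM in MA1 to MA3, over 50 genes of which 3 were at 0 throughout, while the summed MyoG CPM there was 81.5, 16.4 and 51.0. HA2, the HA library lowest in MyoG, had a slow or cardiac sum of 3.98 CPM, and LA2, the LA library lowest in MyoG, 2.69 CPM. The part of slow muscle in the MyoG values was not tested. Without MA2, MA against LA was at a log2 difference of 1.32 for LOC113111223, with an edgeR adjusted p of 0.478.

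**Figure D2:**
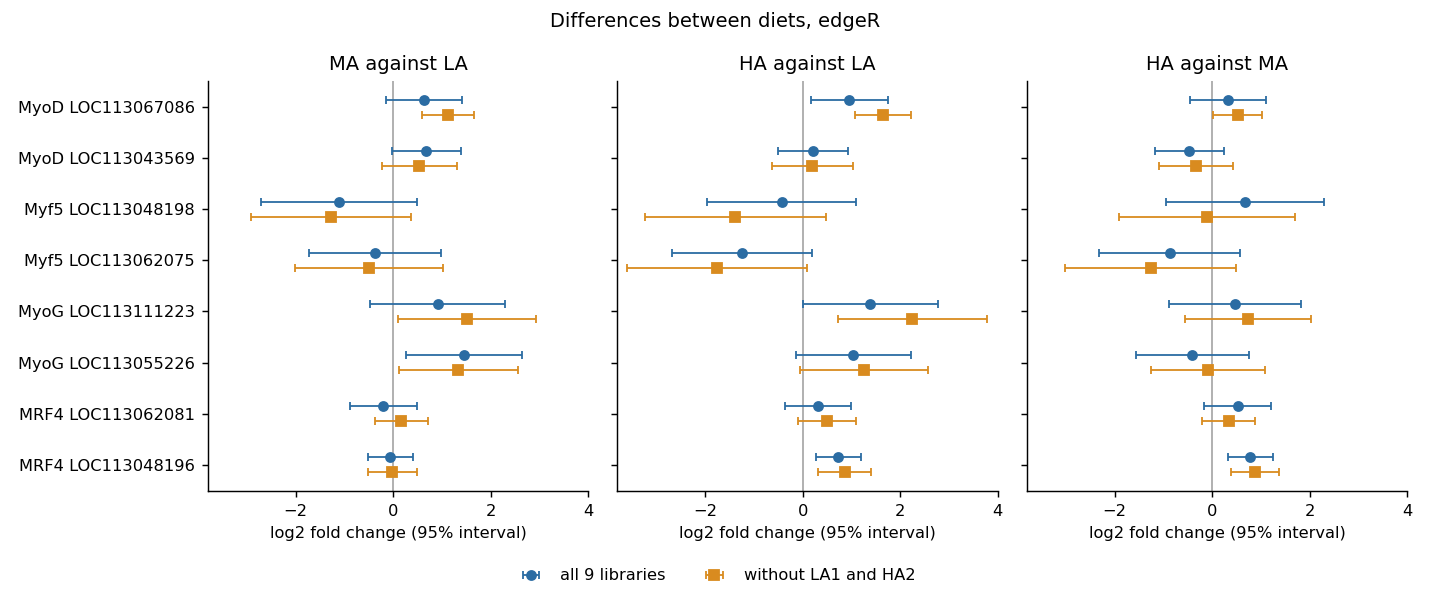
Log2 fold changes of the 8 copies in the 3 comparisons (edgeR, with 95% intervals not adjusted for the number of genes), from all 9 libraries (circles) and without LA1 and HA2 (squares). With all libraries no copy was called, and without LA1 and HA2 the MyoD copy LOC113067086 was called in MA against LA (1.12) and HA against LA (1.64).

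MRF4, the factor of mature fibres, differed least between MA and LA. LOC113062081 was at 43.8, 19.1 and 28.1 CPM in LA, at 22.1, 27.5 and 29.7 CPM in MA, and at 29.1, 46.7 and 37.6 CPM in HA. LA1 and HA2 were the 2 highest of the 9 libraries, and the diets overlapped. The fold against LA was 0.872 in MA (95% interval 0.543 to 1.40, edgeR adjusted p = 0.863) and 1.25 in HA (0.776 to 2.00, adjusted p = 0.963), and HA stood at 1.43 times MA (0.890 to 2.30, adjusted p = 0.635). The direction of MA against LA rested on LA1, since the log2 difference was -0.20 with it and 0.17 without it. Without both LA1 and HA2 the log2 difference of HA from LA was 0.50 ± 0.26 (SE, edgeR adjusted p = 0.437).

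The second MRF4 copy was the one whose HA libraries stood apart. LOC113048196 was at 9.00, 6.83 and 9.94 CPM in LA, at 7.27, 8.73 and 8.78 CPM in MA, and at 15.6, 12.3 and 14.8 CPM in HA. All 3 HA libraries were above all 6 others, with HA2 the lowest of them. Such separation was seen in 1.47% of tested genes for HA above both other diets, in 5.15% for HA above LA and in 9.2% for HA above MA. Summed CPM of 73 fast muscle markers, 1 of them at 0 throughout, was 339326 to 423880 in HA and 429467 to 438127 in LA. In MA it was 334426 to 463101, a range that spanned that of HA. Of the 53 markers tested, 44 had a negative log2 difference for HA against LA (median -0.34), and their part in the MRF4 values was not tested. HA was 1.66 times LA (95% interval 1.20 to 2.28, unadjusted p = 0.00569, edgeR adjusted p = 0.709) and 1.72 times MA (1.25 to 2.37, unadjusted p = 0.00366, adjusted p = 0.271). MA was 0.962 times LA (0.698 to 1.33, adjusted p = 0.950). The adjusted p of 0.709 was the smallest that any gene reached in HA against LA, and other genes shared it. Among these were Pax-3-like LOC113114739 and zeb2, with unadjusted edgeR p of 0.000653 and 0.0133. The copy varied little within diets, with a pooled SD of log2 CPM of 0.21, and 10.6% of tested genes varied less. Without LA1 and HA2 the log2 difference was 0.86 ± 0.24 (SE) against LA and 0.88 ± 0.22 against MA (edgeR adjusted p = 0.15 and 0.138), and under DESeq2 the smallest adjusted p of the 24 tests over all copies was 0.0806. MRF4 summed over copies differed by 0.42 ± 0.26 on the log2 scale for HA against LA and by 0.58 ± 0.26 for HA against MA (edgeR adjusted p = 0.895 and 0.500).

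Per length, the copies of MyoD, MyoG and MRF4 all lay far above the Myf5 copies in each diet. FPKM, reads scaled to library total and listed length, was used for this order. In LA, the mean FPKM ran from 9.59 ± 1.72 (SD, n = 3) for MRF4 LOC113048196 and 9.33 ± 4.36 for MyoD LOC113067086 through 7.46 for MyoG LOC113055226, 7.44 for MRF4 LOC113062081 and 6.10 for MyoG LOC113111223 to 3.42 for MyoD LOC113043569. Each of these overlapped the next in the order. The Myf5 copies followed at 0.458 and 0.325 FPKM, and all 3 LA libraries of the lowest other copy were above them. In MA the order began with MyoG LOC113055226 at 21.0 ± 12.1 FPKM and MyoD LOC113067086 at 15.9 ± 2.25. In HA it began with MyoD LOC113067086 at 20.9 ± 7.45 FPKM, MyoG LOC113111223 at 18.6 ± 9.04, MRF4 LOC113048196 at 17.8 ± 3.98 and MyoG LOC113055226 at 17.6 ± 9.89, and each of these 4 overlapped the next. In HA the MRF4 copy LOC113062081 at 10.3 ± 1.33 FPKM and the MyoD copy LOC113043569 at 4.44 ± 1.33 did not overlap each other.

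The length listed for a copy decided which MRF4 copy ranked higher. LOC113062081 had 3801 listed bases and LOC113048196 had 844. By reads the first held 65.1% to 83.0% of the MRF4 reads of a library, whereas by FPKM it exceeded the second only in LA1, where the ratio was 1.08. The listed lengths of the MyoD copies were 1588 and 1581 bases and those of the MyoG copies 1440 and 1475 bases, so reads and FPKM gave the same order there except for MyoG in HA1, where the FPKM ratio was 1.01.

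The FPKM of the 8 copies added up to 34.6 to 52.6 in LA, 57.1 to 81.0 in MA and 58.2 to 118 in HA, and the lowest supplemented library was above the highest LA library on this scale. On the TMM-normalised CPM scale used for the tests the 8 copies added up to 60.2 to 109 in LA, 88.9 to 140 in MA and 115 to 161 in HA, and MA2 lay below LA1. Of the FPKM sum, MyoG took 29.7% to 32.1% in LA, 21.8% to 62.9% in MA and 28.8% to 46.2% in HA. The MRF4 share of the FPKM sum was 37.1% to 40.9% in LA, 16.3% to 34.1% in MA and 25.3% to 42.5% in HA. All MA libraries were below all LA libraries in this share, but a share also falls where another part of the sum rises. MyoG took 62.9% of the sum in MA1, 21.8% in MA2 and 45% in MA3. The CPM of MRF4 summed over copies differed by a log2 value of -0.17 ± 0.26 (SE) for MA against LA (edgeR adjusted p = 0.866). The Myf5 share of the FPKM sum was at most 2.48%. These sums were not tested.

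**Figure D3:**
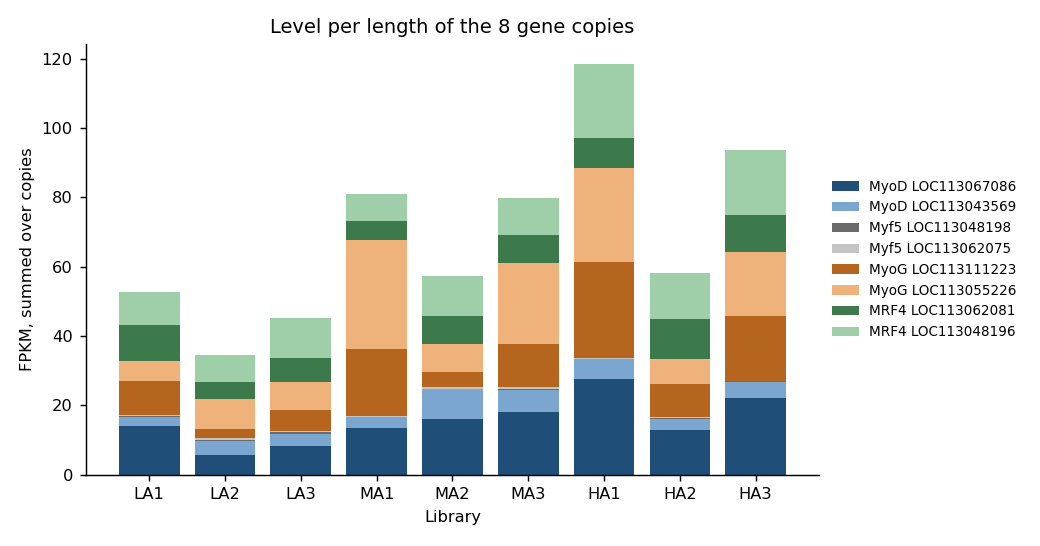
FPKM of the 8 MRF gene copies stacked for each of the 9 libraries, with dark and light shades for the copies of a factor. The stacks reach 34.6 to 52.6 in LA and 57.1 to 118 in the supplemented libraries, MyoG (orange shades) varies most in height, and Myf5 (grey) is barely visible.

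The share of reads held by either copy of a factor was read in each library. For MyoG, LOC113111223 held 62.4% of the reads of both copies in LA1 (Wilson 95% interval 57.3 to 67.3), 22.4% in LA2 (17.7 to 28.0) and 41.9% in LA3 (36.4 to 47.6). It held 37.4%, 36.2% and 34.0% in MA1 to MA3, whose intervals overlapped, and 49.7%, 55.4% and 50.2% in HA1 to HA3. The LA libraries spanned the widest range, and the MA libraries lay below the HA libraries. For MyoD, LOC113067086 held 84.9%, 57.0% and 70.2% in LA, 81.6%, 65.3% and 73.8% in MA, and 82.8%, 80.8% and 83.2% in HA. Library 2 had the lowest share of this copy in all 3 diets. The MRF4 copy LOC113062081 held 83.0%, 73.7% and 73.9% in LA, 75.3%, 75.9% and 77.2% in MA, and 65.1%, 79.2% and 71.8% in HA. Here LA1 was the highest library and HA1 the lowest.

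These ratios were tested over the 3 diets together only, and none passed. An exact permutation test of the F statistic used the 1680 arrangements of 9 libraries into 3 diets and the log2 ratio of the copies per length. This permutation test gave p = 0.368 for MyoD, 0.318 for MyoG, 0.593 for MRF4 and 0.400 for Myf5. Adjusted over the 4 factors these permutation p were 0.533 to 0.593. The mean log2 ratio of the MyoG copies was -0.47 ± 1.25 (SD, n = 3) in LA, -0.80 ± 0.11 in MA and 0.14 ± 0.18 in HA, so the LA spread exceeded the distance between MA and HA. The test over 3 diets takes in that LA spread, and MA and HA were not tested as a pair. Myf5 had 9 to 26 reads of both copies in a library and its ratio was not read further. Whether reads were split between near-identical stretches of the copies was not tested.

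**Figure D4:**
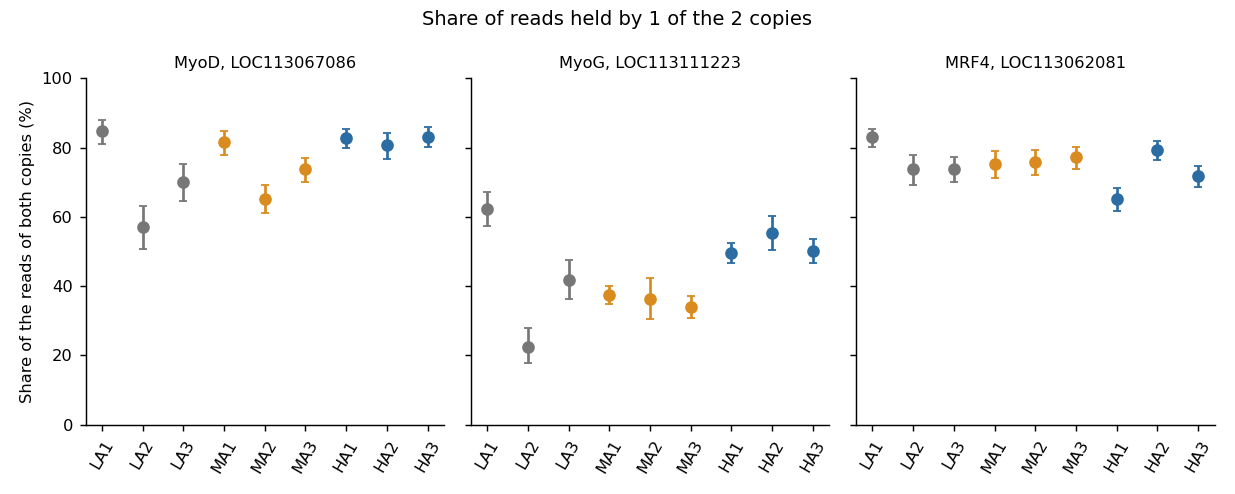
Share (%) of the reads of both copies held by the named copy of MyoD, MyoG and MRF4 in the 9 libraries, with Wilson 95% intervals that cover counting error only. LA1 and LA2 differ most for MyoG (62.4% and 22.4%), while the MA libraries lie between 34.0% and 37.4% and the HA libraries between 49.7% and 55.4%.

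Across the 9 libraries the factors did not all vary together. The log2 CPM of MyoD LOC113067086 and MyoG LOC113111223 had a Pearson r of 0.83, and the 2 MyoG copies one of 0.72. MRF4 LOC113062081 had an r of 0.51 with this MyoD copy, 0.35 with this MyoG copy and -0.32 with the other MyoG copy. The Myf5 copy LOC113048198 had an r of -0.58 with MyoD and -0.54 with MyoG. These values describe 9 libraries that share diets, among which LA1 and HA2 are alike, and carry no test.

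Among tested genes with a description, the 5 with the pattern most like each factor were named by Pearson r of log2 CPM over the 9 libraries. Picked as the highest of many genes over few libraries, these r are high by selection and carry no test. Some of the genes had few reads. In LA2, LOC113047766 was at 0.459 CPM and the dexamethasone-induced Ras-related protein 1-like gene at 0 CPM. For MyoD the first was a MICOS complex subunit MIC19-like gene (LOC113047766, r = 0.992), which encodes a mitochondrial membrane organiser, followed by insulin-like growth factor-binding protein 1 (LOC113121089, r = 0.981). A desmin-like gene (LOC113108885, r = 0.972), whose product is the intermediate filament of muscle, was among the 5, with 702, 516 and 553 CPM in LA, 746, 734 and 731 CPM in MA and 879, 703 and 778 CPM in HA. The others were carbohydrate sulfotransferase 15-like (r = 0.973) and CCR4-NOT transcription complex subunit 2-like (r = 0.970). For MyoG the first was another MIC19-like gene (LOC113065631, r = 0.987), at 24.2, 13.6 and 17 CPM in LA, 32.8, 14.7 and 25.4 CPM in MA and 37.1, 25.1 and 32.0 CPM in HA. It shared with MyoG the low value in library 2 of each diet. Dexamethasone-induced Ras-related protein 1-like (r = 0.986), procollagen-lysine 5-dioxygenase 1-like, a collagen-modifying enzyme (LOC113107825, r = 0.983), an NMDA receptor subunit 1-like gene (r = 0.978) and kcnb2, a potassium channel gene (r = 0.963), followed.

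The genes most like MRF4 were those with LA1 and HA2 at the top. Wnt-7b-like (LOC113063271, r = 0.993), a secreted signalling protein, was at 3.19, 0.985 and 1.79 CPM in LA, 1.34, 1.75 and 1.92 CPM in MA, and 2.01, 3.22 and 2.57 CPM in HA. High mobility group protein B3-like (r = 0.982), a wings apart-like homolog (r = 0.979), CCR4-NOT transcription complex subunit 9 (r = 0.978) and lysine-specific demethylase 5B-B (r = 0.978) completed the 5, and in each of them LA1 and HA2 were among the 3 highest libraries. For Myf5 the r ranged from 0.934 to 0.955 with bicaudal C homolog 1-B-like, tex9, TIA-1-like, high mobility group protein B2-like and lumican-like, but rested on 2 to 15 reads of Myf5 a library.

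The other genes of the myogenic programme were taken from 6 lists by description. These were E proteins and Id inhibitors, MEF2 factors, upstream regulators, repressors, fusion genes and muscle targets. Of their 217 genes 127 were tested, and edgeR called none in any comparison of diets. At an unadjusted p under 0.05 there were 15 (11.8%) for MA against LA, 20 (15.7%) for HA against LA and 13 (10.2%) for HA against MA, beside 11.5%, 6.22% and 10.1% of all tested genes. DESeq2 called 2, 1 and 2 of these 127 genes, beside 440, 49 and 296 of the 23946 tested genes. Over all tested genes, all MA libraries lay below all LA libraries in 8.41%. All HA libraries lay above all LA libraries in 5.15%, below all of them in 4.98%, and above all MA libraries in 9.2%.

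Of the partners of MRFs, E proteins form the active dimer with an MRF, and Id proteins take E proteins away from it. Of these 27 genes 18 were tested, with 7 positive and 11 negative log2 differences for MA against LA and a median of -0.09, beside -0.027 over all genes, and with 11 positive for HA against LA and a median of 0.09, beside -0.006. Transcription factor 4-like LOC113082885 was at 2.20, 3.22 and 2.36 CPM in LA, 1.66, 0.776 and 1.92 CPM in MA and 2.86, 2.81 and 3.57 CPM in HA. Its mean was lowest in MA (edgeR adjusted p = 0.408 over the 3 diets). The 2 Id3-like genes named by rule had lower means in HA than in LA, LOC113080392 at 0.384 against 0.980 CPM and LOC113117221 at 1.73 against 3.00 CPM. Their edgeR adjusted p for HA against LA were 0.786 and 0.855. Summed over the 13 copies listed as Id, CPM was 13.1, 16.3 and 11.4 in LA and 11, 13 and 12.3 in HA. These ranges overlapped, and the Id sum was not tested. E2-alpha-like LOC113045215 was at 1.20 to 1.93 CPM in LA and 0.892 to 0.974 CPM in HA, which did not overlap (adjusted p = 0.855). HA lay below LA without overlap in 4.98% of tested genes. Summed over the 8 copies listed as tcf3 (E2-alpha), CPM was 18.9, 13.6 and 17.5 in LA and 20.9, 17.6 and 19.1 in HA. That sum was not lower in HA and was not tested.

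MEF2 factors act with MRFs at muscle promoters. Of 14 genes 9 were tested, with median log2 differences of -0.06, 0.05 and 0.30 for MA against LA, HA against LA and HA against MA, and 8 of the 9 were positive in the last, where 51.4% of all tested genes were positive with a median of 0.015. MEF2A-like LOC113091649 was at 476, 433 and 434 CPM in LA, 282, 312 and 298 CPM in MA and 228, 493 and 336 CPM in HA. All MA libraries lay below all LA libraries, as did those of 8.41% of tested genes, whereas HA spanned both (edgeR adjusted p for MA against LA = 0.416). MEF2C-like LOC113054619 was at 86.2 to 91.4 CPM in LA and 56.9 to 66.9 CPM in MA, again without overlap (edgeR adjusted p = 0.33). The second MEF2C-like gene LOC113079191 was at 11.6 to 15.5 CPM in LA and 17.3 to 19.9 CPM in HA (adjusted p = 0.729). MEF2D LOC113116626 had means of 79.4, 61.8 and 78.3 CPM in LA, MA and HA.

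Among the upstream regulators, which switch on MRF genes in precursors, 26 of 40 genes were tested and the medians were -0.11, -0.01 and 0.10. Pax-3-like LOC113114739, a regulator of muscle precursors, was at 1.20, 1.58 and 1.72 CPM in LA, 1.08, 0.841 and 0.742 CPM in MA and 0.426, 0.137 and 0.313 CPM in HA. The 3 diets did not overlap, and the log2 difference of HA from LA was -2.31 ± 0.47 (SE, edgeR adjusted p = 0.709). MA lay below LA without overlap in 8.41% of tested genes, and HA below LA in 4.98%. In HA this gene was near the limit of counting, within the 0.122 to 1.03 CPM of Myf5 LOC113048198. LBX1-like LOC113113778, a factor of migrating precursors, was at 3.47, 5.05 and 3.15 CPM in LA, 7.14, 6.53 and 6.43 CPM in MA and 1.58, 3.36 and 2.25 CPM in HA. Its mean was highest in MA (HA against MA -1.48 ± 0.30, edgeR adjusted p = 0.169). Schwann cell markers were also highest in MA, with a summed CPM of 386 to 493 over 19 genes, none at 0 throughout, against 238 to 298 in the other diets, and their part was not tested. SIX4-like LOC113112574 was at 4.11 to 6.36 CPM in LA, 4.40 to 7.89 CPM in MA and 6.45 to 21.7 CPM in HA, where HA2 was again the lowest. Over the 3 diets its edgeR adjusted p was 0.275 with all libraries, 0.0235 without both LA1 and HA2 and 0.0186 with no filter on low counts, and 0.035 under DESeq2. For LBX1-like LOC113113778 these values were 0.218, 0.039, 0.0406 and 0.0101, and Pax-3-like LOC113114739 passed under DESeq2 only (0.0193). A second SIX4-like gene, LOC113074850, was at 20.0 CPM in LA1 and 19.5 CPM in HA2 and at 4.53 to 10.8 CPM in the 7 others, so that LA1 and HA2 carried it.

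Of 65 genes for repressors of MRF action 35 were tested, with medians of 0.15, 0.22 and -0.03. SNAI2-like LOC113106338, a repressor that occupies E-boxes in mouse myoblasts, was at 0.354, 0.525 and 0.929 CPM in LA, 4.65, 6.53 and 5.81 CPM in MA and 4.81, 0.617 and 3.63 CPM in HA. The log2 difference of MA from LA was 3.22 ± 0.65 (SE, edgeR adjusted p = 0.131, the smallest of the 6 lists in that comparison), and HA2 lay in the LA range. Over the 3 diets LOC113106338 had an edgeR adjusted p of 0.218 with all libraries, and it passed without HA2 (0.0308), without both LA1 and HA2 (0.0101), under DESeq2 (0.00252) and with no filter on low counts (0.00235). Myostatin, annotated as growth/differentiation factor 8 (LOC113108366), a secreted inhibitor of muscle growth that lowers MRF levels in mammals, was at 20.8, 7.75 and 13.7 CPM in LA, 20.1, 50.4 and 39.8 CPM in MA and 27.1, 22 and 25.1 CPM in HA. LA2 and LA3 were its lowest libraries, as for MyoD, and its log2 difference of MA from LA was 1.39 ± 0.39 (edgeR adjusted p = 0.236). Summed over 5 myostatin copies, CPM was 19.2 to 22.1 in LA, 24.7 to 72.2 in MA and 43.4 to 49.0 in HA. MA1, at 24.7 CPM, was close to LA1, at 22.1 CPM, and this sum was not tested. MA2 and MA3 held the highest sums, 72.2 and 55.7 CPM, and were the 2 libraries high in slow muscle markers, whose part was not tested. ZEB1-like LOC113056169 was at 14 to 19.1 CPM in HA and 7.89 to 11.3 CPM elsewhere (HA against MA 0.78 ± 0.20, edgeR adjusted p = 0.26), and zeb2 was at 2.19 to 4.25 CPM in HA and 1.18 to 1.93 CPM in LA (adjusted p = 0.709). HA lay above both other diets without overlap in 1.47% of tested genes and above LA in 5.15%.

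Of 24 fusion genes 15 were tested, with medians of -0.11, -0.08 and 0.15. The junctional adhesion molecule C-like gene LOC113038580, of a family needed for myoblast fusion in zebrafish, was at 6.16, 4.92 and 4.79 CPM in LA, 8.86, 8.21 and 8.16 CPM in MA and 9.19, 8.92 and 7.83 CPM in HA. The log2 differences from LA were 0.67 ± 0.19 in MA and 0.71 ± 0.19 in HA (SE, edgeR adjusted p = 0.233 and 0.709). All HA libraries lay above all LA libraries, as did those of 5.15% of tested genes. Of the other 2 copies named by rule, LOC113079216 had means of 0.636, 1.12 and 2.43 CPM in LA, MA and HA, and LOC113092290 of 7.88, 11.7 and 15.1 CPM. A hepatocyte growth factor receptor-like gene, LOC113043267, had means of 1.24, 0.466 and 0.757 CPM. The myomaker copies, which encode the fusion protein of myoblasts, were at 0 to 0.263 CPM and did not enter the test.

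Muscle targets of MRFs were 47 genes, of which 24 were tested, with medians of -0.08, -0.08 and -0.04. An actin, alpha skeletal muscle 2-like gene, LOC113057006, was at 1831, 718 and 1149 CPM in LA, 513, 363 and 483 CPM in MA and 506, 1258 and 834 CPM in HA. All MA libraries lay below all LA libraries (log2 -1.44 ± 0.39 SE, edgeR adjusted p = 0.227), and HA2 and HA3 lay inside the LA range. The related LOC113058747 was at 0.248 to 1.59 CPM as diet means, lowest in HA and highest in MA, and over the 3 diets it passed under DESeq2 only (adjusted p = 0.00647, edgeR 0.218). As actin copies are near-identical in their coding parts, the split of reads between them is uncertain. Summed over the 9 copies listed as acta1, CPM was 31670, 19439 and 24014 in LA and 26712, 18122 and 26731 in MA. In HA it was 16501, 28229 and 21829, so the diets overlapped, and this sum was not tested. The acetylcholine receptor beta-like gene LOC113052172, an MRF target at the neuromuscular junction, had means of 15.1, 13.6 and 23 CPM in LA, MA and HA. A myosin regulatory light chain 2 copy, LOC113069192, had means of 2.88, 4.73 and 0.466 CPM, with 0.383, 10.5 and 3.34 CPM in MA1 to MA3. Summed over the 4 copies listed as mylpf, CPM was 49990, 45686 and 46061 in LA and 48142, 35129 and 38824 in MA. In HA it was 26348, 47484 and 32483, so the diets overlapped, and this sum was not tested. Summed CPM of muscle creatine kinase, a target of MyoD and MyoG in mammals, was 157105 to 159434 in LA, 125607 to 157882 in MA and 121452 to 159977 in HA, and overlapped between diets.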

How the data were processed

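Poly(A) RNA of muscle was sequenced in 9 libraries. The authors deposited 1 table of whole-number read counts and of FPKM per gene, and its FPKM were found to equal the count divided by listed length and library total. What aligned and counted the reads, and with which strand setting, is not given in the sources used here. In the submitters' processing notes DESeq2 is named. The columns coded HA, HB and HC hold the LA, MA and HA libraries per the labels.

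For the counts, edgeR 4.0.16 was run in R 4.3.3 (TMM, filterByExpr by diet with a minimum count of 10, quasi-likelihood test, 1 coefficient per diet, all 9 libraries), with Benjamini-Hochberg adjustment over 23946 genes and a threshold of 0.05. CPM were TMM-normalised, and correlations used log2 CPM with a prior count of 2. The script was tested on simulated data. Alternatives were DESeq2 1.42.0, limma-trend 3.58.1 on log2(FPKM + 1) and log2(FPKM + 0.1), RLE factors, other filters, fewer libraries, a replicate block and summed copies. Named genes were the 4 factors and their copies, in each list the called genes and up to 4 with the smallest p over the 3 diets, and for each factor the 5 genes with the highest r. The members and lists were chosen with earlier results of these data known. Descriptions came from the table and chromosomes from RefSeq (ASM336829v1), which held 69688 of 76298 IDs. Intervals of shares and counts cover counting error only, and no molecular identifiers are named in the protocol.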

Additional observations from a re-analysis of the deposited data

How the results depend on the processing

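Of 455 recomputed log2 differences of the 8 copies, 442 kept their direction and 13 turned, 7 of them among the 235 of the 4 followed genes. Only MyoD in MA against LA (1.12) and HA against LA (1.64) passed the threshold, both without LA1 and HA2. With copies summed MyoG in HA against MA was -0.03 and Myf5 in HA against MA was -0.15, and without LA1 and HA2 MRF4 in MA against LA was 0.17 and Myf5 in HA against MA was -0.11. The MRF4 copy LOC113048196 in MA against LA was 0.06 under limma at both pseudocounts and 0.02 with replicates 1 and 2 alone. Leaving out 1 library gave -0.45 to 0.17 for MRF4 and -0.20 to 0.06 for its copy LOC113048196 in MA against LA, -1.23 to 0.04 for Myf5 in HA against LA, -0.11 to 1.16 for Myf5 and -0.83 to 0.12 for the MyoG copy LOC113055226 in HA against MA. The causes were not tested. Of 449 recomputed adjusted p of list genes 12 passed, for LOC113106338, LOC113112574, LOC113113778, LOC113114739 and LOC113058747.

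The counts of genes called over the whole table depended more on the setting. The edgeR fit of all libraries called 20 genes in MA against LA, 0 in HA against LA, 13 in HA against MA and 19 over the 3 diets, and the counts below keep this order. Without a filter on low counts they were 542, 119, 321 and 753, under DESeq2 440, 49, 296 and 543, and without both LA1 and HA2 542, 219, 75 and 596. With only the 2 diets compared, MA against LA had 8. With replicates 1 and 2 alone no gene was called in MA against LA, in HA against MA or over the 3 diets (0 each), beside 527, 431 and 316 at an unadjusted p under 0.05. Leaving out 1 library gave 0 to 293, 0 to 175, 0 to 75 and 0 to 336, the highest without LA1 except in HA against MA, where it was without MA1. With the replicate number as a block (replicate block) they were 4, 0, 0 and 3, and none of the 4 factors was called. Same-numbered libraries had residual correlations of -0.60 to 0.27, and 5 of 9 libraries correlated best with their own number, so the numbers were not taken as pairs. The counts of 2 to 15 reads limit what can be said of Myf5.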
